A study of Mus musculus with 64 samples.

Results

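Choroid plexus epithelial genes were examined in RNA from microglia of the mouse hippocampus and frontal cortex. The 10 genes were Ttr, Kl, Folr1, Prlr, Mfrp, Kcnj13, Clic6, Epn3, Aqp1 and Slc4a5, out of 49671 genes in the count table, and each was found in it. They were chosen because their counts had been seen to differ between the regions and between day and night in these same libraries. Those differences are therefore given as a description, with no test. Total RNA had been sequenced after depletion of ribosomal RNA from 64 libraries of adult male C57BL/6 mice (C57BL6/N by the methods). Each of the groups combined a region (Hippocampus or Frontal_cortex), a phase (Day or Night) and a condition (Soci, Cogn, Ctr0 or Ctr1), and each of the 16 groups held 4 libraries numbered 1 to 4. The labels do not say what the condition names stand for. By the paper, microglia were isolated at a single time point in each of the light and dark phases. The mice were kept on a reversed light-dark cycle, and the labels do not say which light phase Day is. By the methods of the study, the brains were perfused and broken up mechanically in the cold, myelin was removed on a Percoll gradient, and cells were taken with magnetic beads against CD11b, a surface protein of microglia and other myeloid cells. Choroid plexus epithelial cells are not targeted by this selection.

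The choroid plexus is a folded sheet of epithelium in the brain ventricles that secretes cerebrospinal fluid and passes hormones, vitamins and carrier proteins into it. In the forebrain the plexus of the lateral ventricle lies directly against the hippocampus, whereas the frontal cortex is farther from it. Ttr encodes transthyretin, the carrier of thyroxine and of retinol-binding protein that this epithelium secretes. Kl encodes alpha-Klotho, a co-receptor for the hormone FGF23 that is also shed into the fluid. Folr1 encodes folate receptor alpha, which carries folate across the epithelium, and Prlr the prolactin receptor. Aqp1 encodes the apical water channel, Kcnj13 the inwardly rectifying potassium channel Kir7.1, and Slc4a5 a sodium bicarbonate cotransporter, all parts of the secretory machinery. Clic6 belongs to the chloride intracellular channel family, Epn3 encodes an epsin, an adaptor of endocytosis, and Mfrp encodes a membrane protein related to the frizzled receptors.

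In build GRCm38 with the GENCODE M21 annotation, the genes lie on different chromosomes except for one pair. Aqp1 (chromosome 6, 55336432 to 55348555, plus strand) and Slc4a5 (chromosome 6, 83219828 to 83304945, plus strand) share chromosome 6. Kl (chromosome 5, 150952607 to 150993817), Prlr (chromosome 15, 10177238 to 10349180), Mfrp (chromosome 9, 44101729 to 44109187) and Clic6 (chromosome 16, 92485736 to 92541243) are on the plus strand. Folr1 (chromosome 7, 101858331 to 101870788), Epn3 (chromosome 11, 94489599 to 94499974) and Kcnj13 (chromosome 1, 87386363 to 87394729) are on the minus strand. All are protein-coding. Mfrp is less certain than most, because 1589 of its 4334 exon bases are shared on the same strand with C1qtnf5, which had 0 counts in all libraries. The level of Mfrp per kilobase therefore used the other 2745 bases, and that of Prlr left out 203 bases shared with Gm21973, also at 0 counts. Kcnj13 shares 623 of its 1270 exon bases with Gigyf2 on the opposite strand, and the strand setting of the counting was not stated. Kcnj13 had 0 counts in 3 libraries in which Gigyf2 had 735 to 1224 counts. This does not tell how reads in the shared bases were assigned. The level of Kcnj13 per kilobase used all 1270 bases, and is too low if reads in the shared bases were not counted. Mfrp also shares 648 bases with Gm20444 and 54 with Rnf26 on the opposite strand, and no correction was made for these.

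Windows of 250 bases before to 50 after the annotated starts were found in RefSeq (build GRCm38.p6) for 6 of the 10 genes: Kl, Prlr, Mfrp, Kcnj13, Aqp1 and Slc4a5. The 8 windows were searched on both strands for the E-box CACGTG, which clock factors bind, for the OTX core TAATCC, which Otx2 and related homeodomain factors bind, and for the FOX core TGTTTAC, which forkhead factors bind. No window held more than one of the motifs. Mfrp was the only one of the genes whose window held the OTX core (on the minus strand), and Prlr the only one whose window held the FOX core (on the plus strand, at one of its 3 starts). No window held the E-box. Of all 32851 windows of this length, 7.15% held the E-box, 7.06% the OTX core and 3.65% the FOX core. Both windows are printed because they are the ones with a match, 5′ to 3′ on the plus strand with the match in capitals, from chr9:44101520-44101819 for Mfrp and chr15:10223656-10223955 for Prlr. A match is a description of the letters and not evidence of binding.
Mfrp: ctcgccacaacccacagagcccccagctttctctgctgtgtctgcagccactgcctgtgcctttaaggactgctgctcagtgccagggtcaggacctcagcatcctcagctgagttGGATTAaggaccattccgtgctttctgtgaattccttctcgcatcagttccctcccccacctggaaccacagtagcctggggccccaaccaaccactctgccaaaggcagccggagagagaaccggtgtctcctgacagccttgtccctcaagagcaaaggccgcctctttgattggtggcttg
Prlr: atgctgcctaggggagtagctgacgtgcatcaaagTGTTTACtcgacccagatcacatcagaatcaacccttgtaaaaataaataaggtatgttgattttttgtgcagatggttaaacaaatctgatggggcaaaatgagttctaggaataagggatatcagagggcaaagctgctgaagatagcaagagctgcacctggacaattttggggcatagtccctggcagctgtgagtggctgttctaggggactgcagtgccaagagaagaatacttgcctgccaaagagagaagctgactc

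The total count was 10.2 to 84.5 M per library. The median total was 18.5 M in hippocampus at night, 17.0 M in hippocampus by day and 14.0 M in frontal cortex at night, and it was lowest in frontal cortex by day (range 10.2 to 24.5 M). Levels are given as CPM, the usual depth-scaled counts, with library sizes adjusted by TMM, and 3 counts in a library corresponded to between 0.0310 and 0.316 CPM. This floor covers counting error only. Counts were found for all 11 microglial markers in each region and phase, with a summed level of 12210 to 25600 CPM, against at most 2968 CPM for the 10 genes summed. Replicates differed by more than sampling noise in all 96 pairs within groups (chi-square over degrees of freedom at least 7.38), and each is 1 sample here. The labels do not say that replicate numbers are separate animals, so p-values measure only the spread between these libraries. One hippocampal library labelled night, Ctr0 replicate 4, stood apart from the other 15 night libraries in all 10 genes. Its level of the clock gene Cry1, 4.72 CPM, lay within the other night libraries (3.22 to 7.88 CPM) and below the day libraries (9.02 to 14.3 CPM). Cry1 bears on the phase alone, and whether the library was mislabelled was not tested. Its summed astrocyte markers stood at 1837 CPM, against 331 to 1004 CPM in the other night libraries, and its oligodendrocyte markers at 452 CPM, against 135 to 297 CPM. Their part in the low level of the 10 genes was not tested.

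Ttr (chromosome 18, 20665280 to 20674321, plus strand, GRCm38) had the highest summed count of the 10 genes in every region and phase. In hippocampus at night its lowest, median and highest level over 16 libraries were 7.85, 1397 and 2455 CPM (mean 1377 ± 667, SD, n = 16). By day they were 0.675, 226 and 799 CPM (mean 249 ± 239, SD, n = 16). In 13 of 16 night libraries Ttr was above every day library, and the library at 7.85 CPM was Ctr0 replicate 4 with 201 counts. Without that library the night range was 597 to 2455 CPM and 14 of 16 day libraries lay below it. Fitted over the 32 libraries, Ttr differed by -2.44 ± 0.54 on the log2 scale (day relative to night, ± SE). Of all 15527 genes tested in this comparison, 18.8% were lower by day and 23.4% higher, and nothing is read from this for the 10 genes. With library totals alone as the scaling, the split over all genes was 262 higher and 4031 lower instead of 3637 and 2913, the median of all genes shifted to -0.14, and the median of the 10 genes was -2.79. In bulk RNA, fewer choroid plexus cells and less RNA per such cell cannot be told apart.

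**Figure D1:**
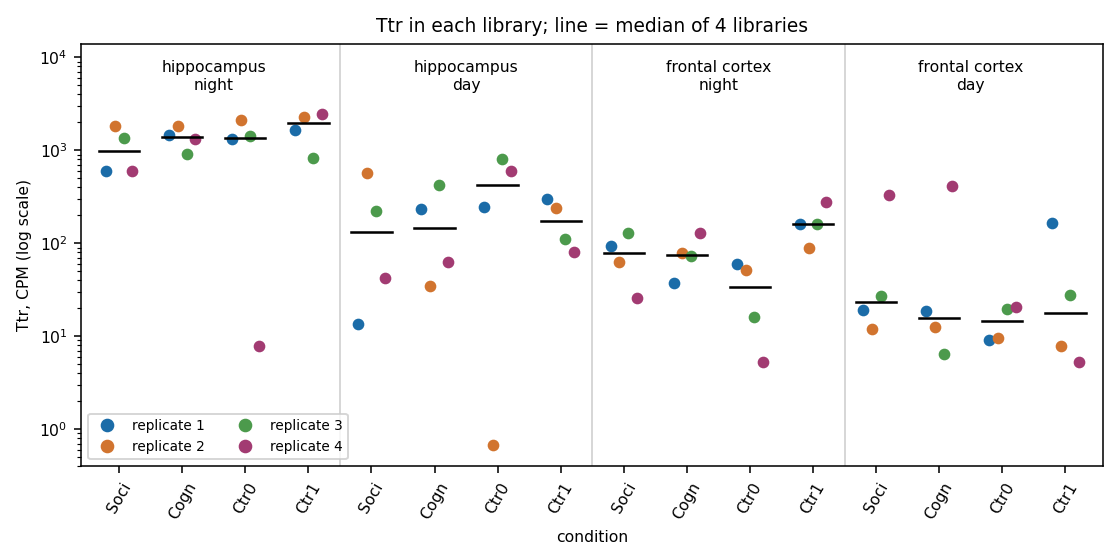
Ttr level in CPM (log axis) in each of the 64 libraries by region, phase and condition. Points are libraries coloured by replicate number and black lines are medians of 4; the hippocampal night libraries lie at 597 to 2455 CPM apart from Ctr0 replicate 4 at 7.85 CPM, and 3 frontal cortex day libraries lie at 165 to 409 CPM.

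The 16 hippocampal values of each phase spread differently among the conditions. At night the 4 Soci libraries had 606, 1821, 1372 and 597 CPM of Ttr for replicates 1 to 4. The Cogn libraries had 1468, 1823, 903 and 1339 CPM. All 8 of these night libraries lay above the 8 day libraries of the same conditions, which peaked at 576 CPM. The Ctr0 libraries had 1309, 2139, 1423 and 7.85 CPM at night, and the Ctr1 libraries 1651, 2293, 820 and 2455 CPM. By day the Soci libraries had 13.4, 576, 220 and 42.1 CPM, and the Cogn libraries 232, 34.8, 420 and 63.0 CPM. In each condition the day values spread more widely than the night values on the log2 scale, with an SD of 2.42 against 0.82 in Soci and of 4.70 against 3.83 in Ctr0. The Ctr0 libraries by day had 244, 0.675, 799 and 601 CPM, and the Ctr1 libraries 300, 240, 112 and 80.7 CPM. Ctr0 replicate 2 by day, at 9 counts, was the lowest Ttr value of all 64 libraries.

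The hormone and vitamin receptors followed the same order of groups as Ttr. Kl had a lowest, median and highest level of 2.50, 124 and 225 CPM in hippocampus at night and of 0.750, 18.5 and 59.8 CPM by day. Prlr had 0.273, 33.1 and 62.4 CPM at night and 0, 5.55 and 18.5 CPM by day. Folr1 had 0.0390, 11.4 and 23.4 CPM at night and 0, 1.51 and 4.44 CPM by day. In each of the 3, the single night library below the day median was Ctr0 replicate 4. Folr1 was above every day library in 15 of 16 night libraries, Kl and Prlr in 12. The median night level was 6.68 times the median day level for Kl, 5.96 times for Prlr and 7.59 times for Folr1.

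Genes of fluid secretion showed day levels that reached into the range of a few reads. Aqp1 had a lowest, median and highest level of 0.273, 11.1 and 20.9 CPM at night and of 0, 0.983 and 4.06 CPM by day, where 4 of 16 libraries had 3 counts or fewer. Kcnj13 had 0.0781, 14.3 and 25.9 CPM at night and 0, 1.87 and 6.57 CPM by day. Slc4a5 had 0.312, 17.5 and 34.4 CPM at night and 0.0750, 2.09 and 6.05 CPM by day. Night libraries above every day library numbered 14 for Aqp1, 13 for Kcnj13 and 15 for Slc4a5. The night median was 11.3 times the day median for Aqp1, the second highest ratio of the 10, and 7.67 and 8.37 times for Kcnj13 and Slc4a5.

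The remaining genes gave the highest and some of the middle ratios. Epn3 had a lowest, median and highest level of 0.195, 7.89 and 13.9 CPM in hippocampus at night and of 0.0750, 0.651 and 2.77 CPM by day, a ratio of medians of 12.1. Clic6 had 0.429, 46.5 and 83.1 CPM at night and 0.225, 7.05 and 22.9 CPM by day, a ratio of 6.59. Mfrp had 0.0390, 16.8 and 28.5 CPM at night and 0.0750, 2.14 and 7.66 CPM by day, a ratio of 7.86. Epn3 separated the phases most fully together with Folr1 and Slc4a5: 15 of 16 night libraries were above every day library, and without Ctr0 replicate 4 all 16 day libraries were below every night library. Over the 10 genes the fitted log2 differences ran from -2.25 ± 0.44 for Prlr to -3.00 ± 0.38 for Epn3 (± SE), with a median of -2.66, beside a median of 0.02 over all genes tested. Without Ctr0 replicate 4, a choice made after seeing the data, the median was -2.76.

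**Figure D2:**
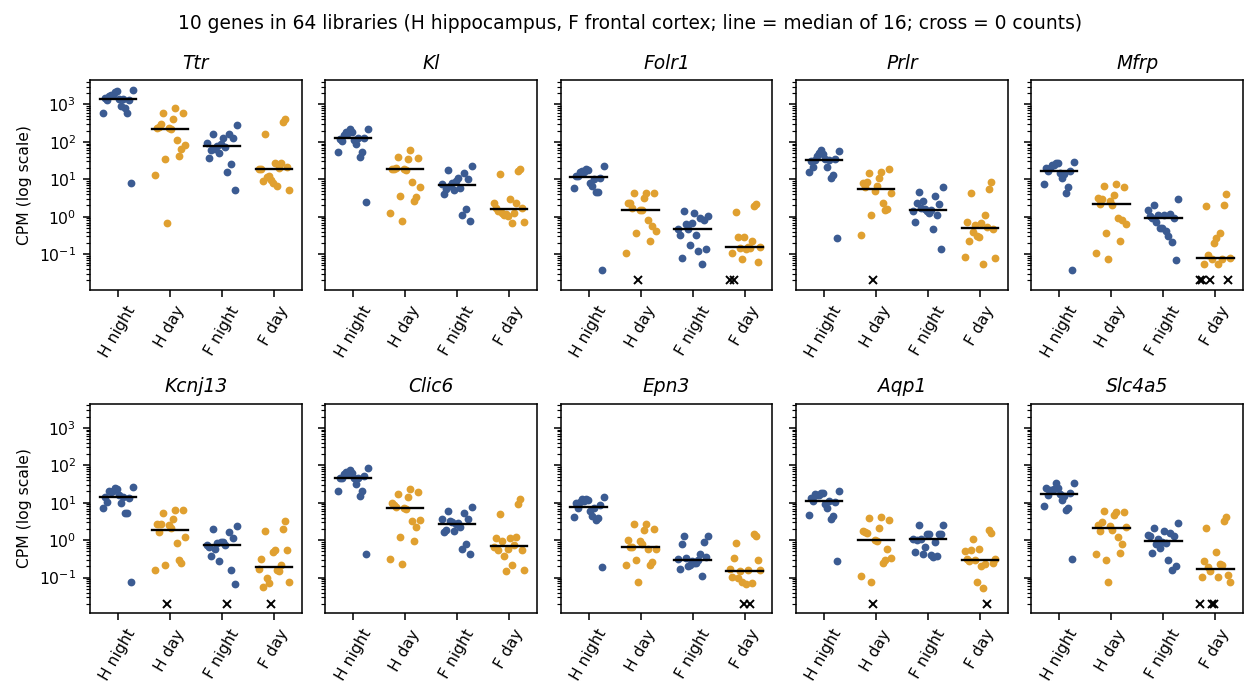
Levels of the 10 genes in CPM (log axis) in the 16 libraries of each region and phase, night in blue and day in yellow. Lines are medians and crosses at the bottom mark libraries with 0 counts; every gene has its highest median in hippocampus at night and its lowest in frontal cortex by day.

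In frontal cortex the median of each of the 10 genes was lower than in hippocampus at the same phase. Across phases the exception to the order of the groups was Aqp1, whose median of 1.05 CPM in frontal cortex at night was next to 0.983 CPM in hippocampus by day. Ttr had a lowest, median and highest level of 5.26, 75.3 and 279 CPM at night and of 5.27, 18.9 and 409 CPM by day. The ranges overlapped fully, and no night library lay above every day library. The means were 90.6 ± 69.3 CPM at night and 68.7 ± 124 CPM by day (SD, n = 16 each). The night median was thus 3.99 times the day median while the night mean was 1.32 times the day mean. The fit, which compares means, gave -0.40 ± 0.58 (log2, day relative to night, ± SE).

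The gap between median and mean in frontal cortex by day came from few libraries. The Soci libraries had 19.0, 11.8, 27.3 and 329 CPM of Ttr for replicates 1 to 4, and the Cogn libraries 18.7, 12.5, 6.48 and 409 CPM. The Ctr1 libraries had 165, 7.91, 27.8 and 5.27 CPM. One library in each of these 3 groups was thus far above the other 3. The Ctr0 libraries had 9.11, 9.59, 19.7 and 20.7 CPM and held no such library. At night the Soci libraries had 93.1, 62.6, 128 and 25.9 CPM, and the Cogn libraries 37.4, 77.8, 72.7 and 131 CPM. The Ctr0 libraries at night had 59.1, 51.2, 15.9 and 5.26 CPM and the Ctr1 libraries 161, 89.3, 160 and 279 CPM. Nothing is read from this pair of conditions, which was seen after the fact. In the test of conditions averaged over the phases, given below, Ttr did not pass (edgeR, adjusted p = 0.720).

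Only 4 of the 10 genes, Ttr, Kl, Prlr and Clic6, passed the filter on low counts for day against night in frontal cortex. Kl had medians of 7.04 CPM at night and 1.57 CPM by day, with a fitted difference of -0.91 ± 0.48 (log2, ± SE). Clic6 had medians of 2.77 and 0.708 CPM and a difference of -0.44 ± 0.50. Prlr had medians of 1.55 and 0.501 CPM and a difference of -0.45 ± 0.51. Without replicate 4 the median of the 4 fitted differences was -1.52 rather than -0.44, and within replicate 4 alone, a comparison added after seeing the data over 4 and 4 libraries and all 10 genes, it was 0.59. With the replicate number as a block the median of the 4 was -1.02. Without replicates 1, 2 and 3 in turn the median was -0.34, -0.19 and -0.22, so of the alternatives run only replicate 4 alone turned the sign. In this comparison 21.3% of 14975 genes tested were lower by day and 20.6% higher. With library totals alone the split was 653 higher and 3412 lower instead of 3083 and 3183.

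The other 6 genes were near the floor in frontal cortex by day. Folr1 had 3 counts or fewer in 13 of 16 day libraries, Mfrp, Epn3 and Slc4a5 in 11, Kcnj13 in 10 and Aqp1 in 6. At night these numbers were 4 for Folr1 and Epn3, 3 for Kcnj13, 2 for Slc4a5, 1 for Mfrp and 0 for Aqp1. Over the 16 day libraries the summed counts were 101 for Folr1, 128 for Mfrp, 138 for Kcnj13, 76 for Epn3, 107 for Aqp1 and 160 for Slc4a5. Medians of these genes by day, such as 0.0774 CPM for Mfrp and 0.152 CPM for Epn3, correspond to a few reads at most, and the ratios of medians for them are not read as sizes of a difference.

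Averaged over day and night, the fitted difference of hippocampus relative to frontal cortex was 2.41 ± 0.31 for Aqp1 and 3.14 ± 0.35 for Folr1 (log2, ± SE), which were the lowest and highest of the 10, and 2.89 ± 0.42 for Ttr. The median over the 10 was 2.93, over 16069 genes tested, of which 10.4% were higher and 6.17% lower in hippocampus, and nothing is read from this for the 10 genes. With library totals alone the split over all genes was 854 higher and 1685 lower, and without the 4 genes over 1% of counts in the scaling it was 1428 and 1680, instead of 1675 and 992. The difference between the regions in the day-night change was -2.07 ± 0.80 for Ttr and ran from -1.84 ± 0.71 for Prlr to -2.64 ± 0.66 for Epn3. It is given with no test, since both regional changes were known when the genes were chosen. Without replicate 4 the median of this difference over the 10 was -1.15 rather than -2.10.

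Levels were compared between genes per kilobase of exon, as CPM per kilobase. In hippocampus at night the medians were 1178 for Ttr, 13.2 for Kl, 11.9 for Clic6 and 11.3 for Kcnj13. They were 6.11 for Mfrp, 4.97 for Folr1, 4.23 for Aqp1, 3.01 for Slc4a5, 2.19 for Prlr and 1.94 for Epn3. Ttr was above Kl in 16 of 16 libraries of each region and phase. Neighbours in this order that did not differ beyond their spread were Clic6 and Kcnj13, where Clic6 was above in 9 of 16 libraries, and Prlr and Epn3, where Prlr was above in 8 of 16. Every other gene in the order was above the next in at least 14 of 16 night libraries. The place of Kcnj13 holds only if reads in the 623 bases shared with Gigyf2 were counted, which is not known. By day in hippocampus the first 7 genes kept this order by their medians, while Prlr (0.367) lay above Slc4a5 (0.359) in 8 of 16 libraries and both above Epn3 (0.160).

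The mixture of the 10 transcripts was compared between the phases as counts per 1000 Ttr counts of the same library, which does not depend on library size. In hippocampus Aqp1 had a median of 8.14 per 1000 Ttr at night and 5.15 by day, and 15 of 16 day libraries lay below the night median. Epn3 had 5.95 at night and 4.43 by day, Slc4a5 had 12.9 and 10.5, Kl had 91.7 and 77.0, and Mfrp had 12.1 and 9.66. In these 4 genes 12 or 13 of 16 day libraries lay below the night median. Folr1 and Kcnj13 had medians of 8.27 against 7.35 and 10.4 against 8.79, with 12 and 11 of 16 day libraries below the night median. Clic6 was at 34.3 and 31.4, while Prlr was on the other side, at 23.4 per 1000 Ttr at night and 25.8 by day. The ranges overlapped in all 9 genes, and these ratios rest on the same contrast that chose the genes and carry no test.

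**Figure D3:**
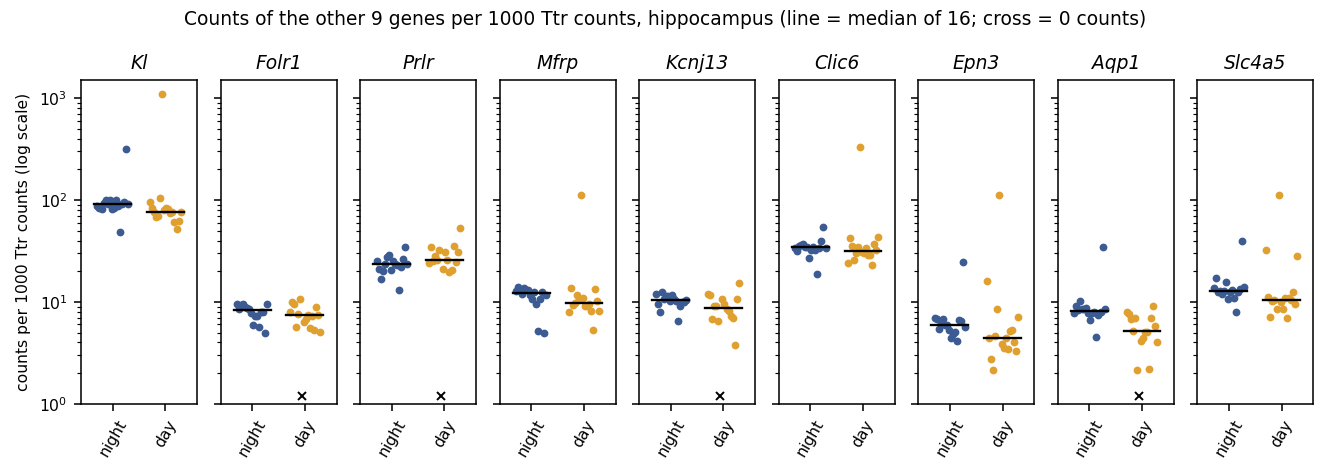
Counts of the other 9 genes per 1000 Ttr counts (log axis) in the 16 night (blue) and 16 day (yellow) hippocampal libraries. Lines are medians and crosses mark 0 counts; Aqp1 has medians of 8.14 and 5.15 and Prlr of 23.4 and 25.8, and the library with 9 Ttr counts gives the highest day value in 5 genes.

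Some libraries with little Ttr had a different mixture, but not all: in Soci replicate 1 of hippocampus by day, with 249 Ttr counts, Ttr made up 81.4% of the counts of the 10 genes. In Ctr0 replicate 4 of hippocampus at night the 201 Ttr counts stood beside 64 of Kl, 8 of Slc4a5, 7 each of Aqp1 and Prlr, 5 of Epn3 and 1 of Folr1. This is 318 Kl counts per 1000 Ttr, against a median of 91.7 over the night libraries. In Ctr0 replicate 2 of hippocampus by day 9 Ttr counts stood beside 10 of Kl. Ttr made up 65.5% of the counts of the 10 genes in the first of these libraries and 36.0% in the second, whereas its median share was 82.7% at night and 84.8% by day. In frontal cortex the share was lowest, at 59.4%, in Ctr0 replicate 4 at night, where Aqp1 had 21 counts beside 76 of Ttr. All 10 genes together made up 0.175% of the counts of the median hippocampal night library, 0.0254% by day, and 0.00973% and 0.00223% in frontal cortex at night and by day.

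The conditions did not enter the choice of the genes, and they were tested within each region, across the 4 conditions, with edgeR's quasi-likelihood test. In hippocampus 0 of the 10 genes passed, with adjusted p-values from 0.933 to 0.987, and 0 of the 10 had an unadjusted p under 0.05. DESeq2 also called 0 of the 10. Ttr had medians over 8 libraries of 587 CPM in Soci, 662 in Cogn, 700 in Ctr0 and 560 in Ctr1. The background of this test was 0% of 16826 genes called by edgeR, although 1090 genes had an unadjusted p under 0.05.

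Among conditions, 0 of the 10 genes passed in frontal cortex, with adjusted p-values by edgeR from 0.720 to 0.887, and DESeq2 called 0, with 6 at an unadjusted p under 0.05. By edgeR Folr1, Kcnj13, Clic6 and Kl had an unadjusted p under 0.05. Over all 16238 genes the unadjusted p was under 0.05 for 1094 by edgeR and 1237 by DESeq2. Folr1 had medians over 8 libraries of 0.376 CPM in Soci, 0.329 in Cogn, 0.0987 in Ctr0 and 0.793 in Ctr1, and its highest Ctr0 library, at 0.177 CPM, was under the median of each other condition. These levels are near the floor, with 14 Folr1 counts in all over the 8 Ctr0 libraries. Libraries at 3 counts or fewer numbered 7 of 8 in Ctr0, 4 in Soci, 3 in Cogn and 3 in Ctr1. Kl had medians of 4.75, 5.06, 1.36 and 11.2 CPM in the same order. Kcnj13 had 0.562, 0.700, 0.110 and 1.26 CPM, and Clic6 2.01, 1.97, 0.577 and 3.81 CPM. All 4 genes were thus lowest in Ctr0 and highest in Ctr1 by their medians, with ranges that overlapped, and none passed the adjustment over 16238 genes. The 4 were picked by this same test and moved together between libraries, so they are not 4 separate results. Ttr, Prlr, Mfrp and Slc4a5 were also lowest in Ctr0 and highest in Ctr1. Epn3 was instead lowest in Cogn (0.188 CPM, against 0.301 in Ctr0), and Aqp1 was highest in Soci (1.07 CPM, against 0.749 in Ctr1). Background calls in this test were 0% of those genes.

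The day-night change was also compared among conditions. In hippocampus 0 of the 10 genes passed, all with an adjusted p of 0.999 by edgeR, and the unadjusted p was under 0.05 for 0 of them, against a background of 0% of 16826 genes. For frontal cortex 0 of the 10 passed, all with an adjusted p of 1.0 by edgeR, and 0 had an unadjusted p under 0.05, against 0.00616% of 16238 genes. Over all genes the unadjusted p by edgeR was under 0.05 for 695 of 16826 in hippocampus and 603 of 16238 in frontal cortex. DESeq2 called 0 of the 10 in both regions. Ttr by day relative to night in hippocampus had group medians of 131 against 989 CPM in Soci, 148 against 1404 in Cogn, 422 against 1366 in Ctr0 and 176 against 1972 in Ctr1.

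Replicate number, which the labels do not tie to a batch, was tested with the group means held. In hippocampus 0 of the 10 genes passed, with adjusted p-values by edgeR from 0.812 to 0.934, and a background of 0.0238% of genes called. None was under 0.05 unadjusted, beside 1289 of all 16826 genes. In frontal cortex 0 passed by edgeR, against a background of 0.0185%. DESeq2 called 0, beside 1342 of 16238 genes, but gave no adjusted p for Folr1 and Epn3. The lowest adjusted p-values by edgeR were 0.0722 for Epn3 and 0.137 for Aqp1, the 2 genes with an unadjusted p under 0.05. Over all genes 3174 of 16238 were under 0.05 unadjusted by edgeR, so nothing is read from these 2 of the 10. Epn3 had medians over 8 libraries of 0.321, 0.178, 0.203 and 0.623 CPM for replicates 1 to 4. Aqp1 had medians of 0.524, 0.629, 0.292 and 1.44 CPM. For both the highest median was that of replicate 4, with ranges that overlapped, and both had single-digit counts in the median library. Ttr had medians of 48.3, 31.8, 27.6 and 78.3 CPM for the same replicates.

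The 10 genes moved together from library to library. After each gene was centred on its group means in log2 CPM, the 45 pairs of genes over 32 hippocampal libraries had Pearson r from 0.919 to 0.992, with a median of 0.973, and a median Spearman rho of 0.967. The closest pair was Folr1 and Mfrp and the farthest Ttr and Epn3. The genes of 1 library share its RNA, its depth and its scaling, and no p is given. Clic6 lay closest to the mean of the other 9 (r = 0.996) and Epn3, with the fewest counts, farthest from it (r = 0.967). Without Ctr0 replicate 4 at night the median r was 0.962.

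In frontal cortex the 45 pairs had r from 0.486 to 0.976, with a median of 0.820. Ttr and Kl, the genes with the most counts there, were the closest pair. Aqp1 was in the farthest pair, with Ttr, and its r to the mean of the other 9 was 0.602, whereas that of Epn3 was 0.759 and that of each of the other 8 at least 0.859. Aqp1 had a median of 7 counts per library, Folr1 of 3, Slc4a5 of 6 and Epn3 of 5, while Ttr, Kl, Clic6 and Prlr had medians of 464, 46, 18 and 15. Without replicate 4 the median r was 0.629, and the lowest pair had r = 0.158.

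**Figure D4:**
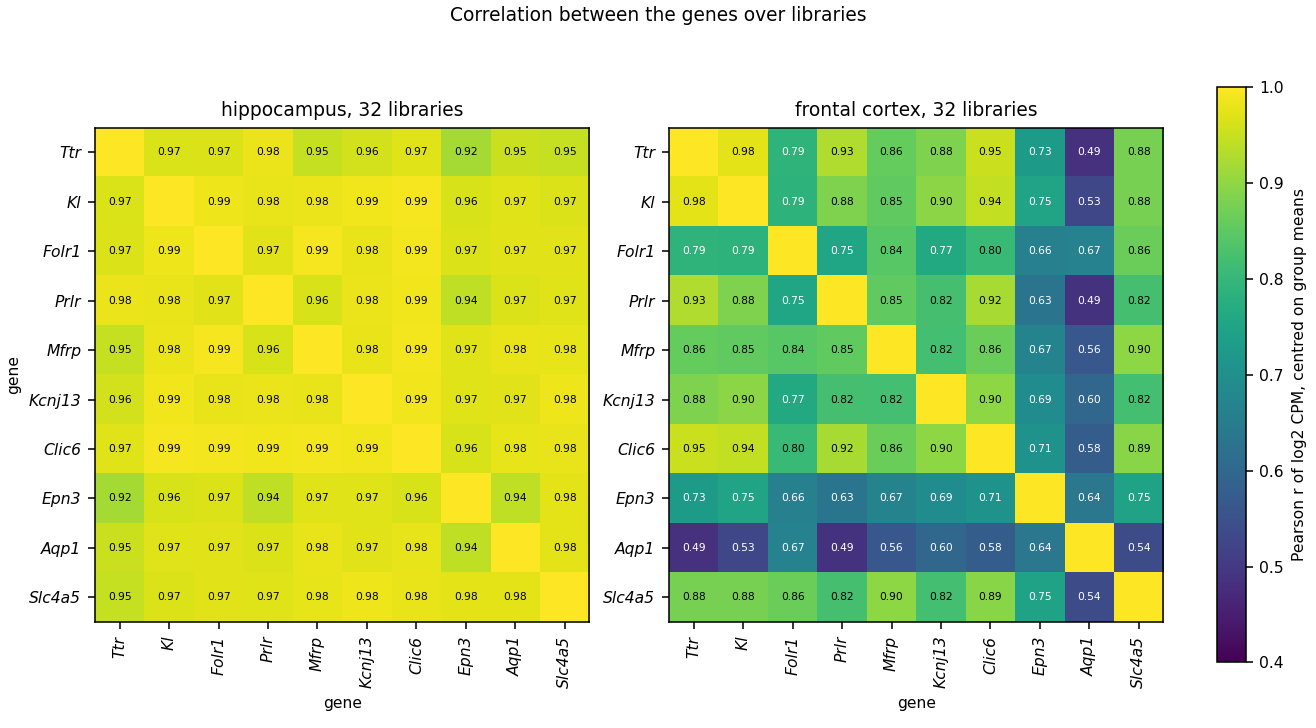
Pearson r between each pair of the 10 genes over the 32 libraries of each region, in log2 CPM centred on the means of the 8 groups of phase and condition. Hippocampal values lie between 0.919 and 0.992 and frontal cortex values between 0.486 and 0.976, with Aqp1 lowest.

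Libraries of both regions with the same phase, condition and replicate number did not move together. Over these 32 pairs the mean of the 10 genes in hippocampus had r = 0.114 and rho = 0.154 with that in frontal cortex, and r = -0.0183 without the 2 farthest hippocampal values. For single genes r ran from -0.175 for Epn3 to 0.192 for Prlr. The labels do not say whether libraries with the same number came from the same animal. The lowest hippocampal night library and the lowest frontal cortex night library nevertheless carried the same label, Ctr0 replicate 4, at 7.85 and 5.26 CPM of Ttr. The frontal cortex library also had the highest summed astrocyte markers of the night libraries, 2447 CPM against 276 to 2170 CPM, and the highest oligodendrocyte markers, 364 CPM against 99.1 to 317 CPM, and their part in its low level was not tested. The high frontal cortex day libraries of Soci and Cogn replicate 4 had hippocampal counterparts at 42.1 and 63.0 CPM, below the hippocampal day median of 226 CPM.

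Among 17130 other genes past the filter, 50 had r over 0.9 with the mean of the 10 over the 32 hippocampal libraries. The 8 closest were Enpp2 (r = 0.997), 1500015O10Rik (0.991), Vat1l (0.988), Sostdc1 (0.988), Otx2 (0.988), Tmem72 (0.987), Kcne2 (0.985) and Cldn2 (0.983). Their r in frontal cortex ran from 0.852 for Kcne2 to 0.971 for Enpp2. Enpp2, which encodes the secreted enzyme autotaxin, had a median of 1140 CPM in hippocampus at night and 181 CPM by day. Otx2, a homeodomain factor needed for the choroid plexus, had 8.55 and 1.14 CPM. All of these except 1500015O10Rik and Vat1l are in the list of choroid plexus companions described next.

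A list of 37 further genes of this epithelium was compared as companions, chosen from background knowledge but with earlier results on these data known. In hippocampus 33 passed the filter, 31 fell by day by edgeR and 0 rose, beside 18.8% of all genes lower, and their median difference was -2.24. A gene that passes the filter only by its night level has to be lower by day, so this count is a description of the 33. The keratins of the epithelium, Krt8 (-3.51 ± 0.48, log2 ± SE) and Krt18 (-3.23 ± 0.45), had the most negative differences. The transcription factor Lmx1a fell by 2.88 on the log2 scale, the coagulation factor gene F5 by 2.73 and Lbp, which encodes a lipopolysaccharide-binding protein, by 2.66. Slc31a1 and Trpv4 did not pass, with -0.20 ± 0.09 and -0.13 ± 0.14. All 6 secreted or binding companions in the fit fell, as did 7 of 9 transport genes, all 3 transcription factors, all 4 junction and keratin genes and all 11 receptor and other genes.

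In frontal cortex 19 companions passed the filter, 4 fell by day and 1 rose, beside 21.3% and 20.6% of all genes. Msx1, a transcription factor (-0.80 ± 0.26, adjusted p = 0.0148), Ace, angiotensin-converting enzyme (-0.78 ± 0.21, adjusted p = 0.00314), Slc4a10 (-0.71 ± 0.19, adjusted p = 0.00282) and Slc12a2 (-0.25 ± 0.06, adjusted p = 0.00127) fell. The channel gene Trpv4 rose (0.71 ± 0.14, adjusted p = 0.00012). Without replicate 4 the number of companions that fell was 13, and without replicate 2 it was 2. Companions were higher in hippocampus than in frontal cortex in 30 of 33, and 0 were lower, beside 10.4% and 6.17% of all genes. Genes that pass the filter only by their hippocampal level have to be higher there, so this count is a description of the 33. The largest differences were 3.16 ± 0.36 for Kcne2, a potassium channel subunit, 3.09 ± 0.36 for Oca2, 2.99 ± 0.36 for Sostdc1, 2.94 ± 0.38 for Cldn2, a claudin of leaky tight junctions, and 2.90 ± 0.35 for Otx2.

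The day-night change of 10 of 33 companions was more negative in hippocampus than in frontal cortex and that of 0 less negative, by the interaction test of edgeR, beside 0.859% and 0.33% of all genes. Only 19 companions passed the filter within frontal cortex. Genes near the floor there can show little change, which favours a negative difference, so this count is a description of the 33. Among the 10 that passed, F5 had the largest difference, -2.20 ± 0.54 (adjusted p = 0.0193), followed by Slc13a4 at -1.89 ± 0.47 (adjusted p = 0.0234) and Spint2 at -1.71 ± 0.47 (adjusted p = 0.0444). Igfbp2 had -1.67 ± 0.36 (adjusted p = 0.00755) and Slc29a4 -1.56 ± 0.40 (adjusted p = 0.0248). This count was the least stable, at 0 without replicate 2, 1 without replicate 1, 2 without replicate 4, 18 without replicate 3, 20 by DESeq2 and 19 without Ctr0 replicate 4 of hippocampus at night. For conditions, change by condition and replicate number, 0 companions were called by edgeR in either region. In that order 1, 1 and 0 of 37 had an unadjusted p under 0.05 in hippocampus, beside 1090, 695 and 1289 of all 16826 genes. In frontal cortex these were 6, 4 and 3 of 27, beside 1094, 603 and 3174 of all 16238 genes. DESeq2 called 1 companion, for replicate number in frontal cortex, beside 1342 of 16238 genes, and 0 companions in the other 5 tests.

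**Figure D5:**
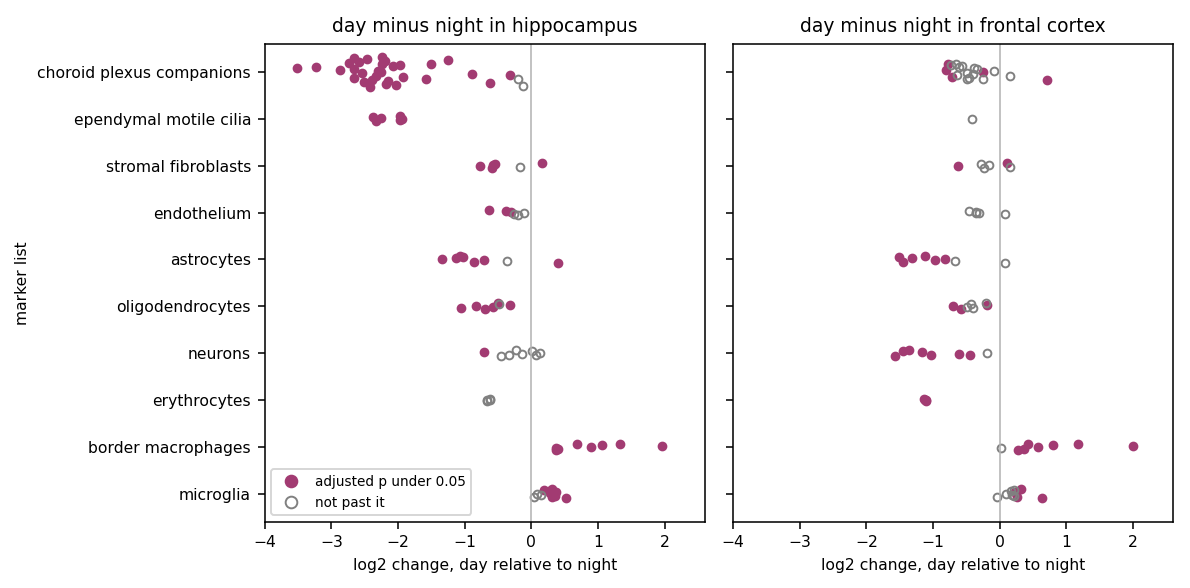
Log2 change by day relative to night of the genes of each marker list that passed the count filter, in hippocampus (left) and frontal cortex (right). Filled points passed an adjusted p of 0.05; all 33 choroid plexus companions in the fit are below 0 in hippocampus, 31 of them filled, as are all 6 ependymal genes, whereas border macrophage genes are above 0 in both regions.

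Markers of other cells were counted beside the 10 genes. Of 12 genes of ependymal motile cilia, the cells that line the ventricles, 6 passed the filter in hippocampus and all 6 fell by day by edgeR, Foxj1 by 2.25 on the log2 scale, beside 18.8% of all genes lower. As for the companions, a gene that passes the filter only by its night level has to be lower by day, and this count is a description. Their summed level ran from 2.03 to 37.8 CPM at night and from 0.901 to 9.16 CPM by day, and Ccdc153, Tmem212, Dynlrb2, Meig1 and Sntn were at 0 in the median day library. Over the 32 hippocampal libraries the summed ependymal level had r = 0.948 with the mean of the 10 genes, and 0.904 without the 2 farthest libraries. In frontal cortex it had r = 0.536 at summed levels of 0.592 to 5.44 CPM. Whether ependymal and choroid plexus RNA entered the libraries together was not tested.

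Genes of other lists also differed between day and night, to be read beside the shares of all genes called (18.8% lower and 23.4% higher in hippocampus, 21.3% and 20.6% in frontal cortex), and their sums were less closely tied to the 10 genes from library to library. By day 8 of 8 border macrophage markers rose in hippocampus, as did 7 of 8 in frontal cortex, with sums of 681 to 1112 CPM at night and 929 to 1483 CPM by day in hippocampus, and their sum had r = -0.271 with the mean of the 10. Of 11 microglial markers 8 rose in hippocampus and 5 in frontal cortex, with r = -0.0756. Astrocyte markers fell in 6 of 8 genes in each region, and 1 rose in hippocampus, with r = -0.497 in hippocampus and -0.0708 in frontal cortex. Stromal fibroblast markers, genes of the connective tissue in the plexus and meninges, fell in 4 and rose in 1 of 6 in hippocampus and fell in 1 and rose in 1 of 6 in frontal cortex, and their sum was 58.6 to 84.8 CPM over all libraries, with r = 0.360 in hippocampus. Endothelial markers fell in 3 of 6 in hippocampus and in 0 of 5 in frontal cortex. Neuronal markers fell in 1 of 8 and 7 of 8, oligodendrocyte markers in 6 of 7 and 3 of 7, and erythrocyte markers in 0 of 4 and 4 of 4, in hippocampus and frontal cortex. For these 4 lists r in hippocampus ran from -0.299 for oligodendrocytes to 0.276 for endothelium, and the log total count had r = -0.219. The part of these lists in the levels of the 10 genes was not tested.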

How the data were processed

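Gene counts from 64 libraries were used. The authors mapped single-end reads to GRCm38 with STAR 2.7.3a and assigned them with featureCounts of Subread 2.0.0. The deposited values are raw counts per gene, and the strand setting is not given in the sources used here. Of 49671 genes, 49412 matched GENCODE M21. Counts were fitted with edgeR 4.0.16 in R 4.3.3 (quasi-likelihood F test, TMM, filterByExpr), with Benjamini-Hochberg adjustment over all genes tested and a threshold of 0.05. DESeq2 1.42.0, median-of-ratios size factors, scaling by library totals alone, scaling without the 4 genes over 1% of counts, no filter, a replicate block and leaving out each replicate were alternatives, and leaving out Ctr0 replicate 4 or taking replicate 4 alone was added after seeing the data. Day was compared with night over 16 and 16 libraries, regions over 32 and 32, and conditions and replicate number within regions. Log2 CPM used a prior count of 2, and SE was derived from the log2 change and its F. All 10 genes were named in every comparison, together with the 5 companions of largest change past the threshold and the 8 genes of highest r. The genes and lists were chosen with earlier results of these data known. The fits were tested on simulated data.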

Additional observations from a re-analysis of the deposited data

Results flagged for a closer look

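Over both regions 25 of 160 sets of 4 libraries of 1 gene held a library whose gap to the next, over the range, exceeded Dixon's critical value. All 25 came from 4 frontal cortex libraries, so they are not separate events. For normally distributed values chance gives about 1 in 20. The gaps were taken in CPM and not on the log scale, so that rate may not apply, and low values are hard to flag. Ctr0 replicate 4 of hippocampus at night, at 7.85 CPM of Ttr, was not flagged. Soci replicate 4 by day had 328.9 CPM of Ttr, 17.17 of Kl, 1.915 of Folr1, 5.612 of Prlr, 2.047 of Mfrp, 9.376 of Clic6, 1.453 of Epn3 and 3.169 of Slc4a5. Cogn replicate 4 by day had 408.8 CPM of Ttr, 18.79 of Kl, 2.252 of Folr1, 8.619 of Prlr, 4.038 of Mfrp, 3.339 of Kcnj13, 12.42 of Clic6, 1.32 of Epn3 and 4.193 of Slc4a5. Ctr1 replicate 1 by day had 165.0 CPM of Ttr, 13.5 of Kl, 1.371 of Folr1, 4.181 of Prlr, 1.919 of Mfrp and 2.056 of Slc4a5. Cogn replicate 4 at night had 0.901 CPM of Epn3 and 1.427 of Aqp1. All of these lay above the other 3 libraries of their group.

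The day-night change differed between the regions for 10 companions, by the interaction test of edgeR. Companions that passed the filter only by their hippocampal level can show little change in frontal cortex, so these differences are a description. The differences were -2.202 for F5, -1.891 for Slc13a4, -1.714 for Spint2, -1.667 for Igfbp2, -1.563 for Slc29a4, -1.546 for Msx1, -1.506 for Ace, -1.159 for Igf2, -0.878 for Trpv4 and -0.8436 for Rdh5 (log2), each more negative in hippocampus.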

How the results depend on the processing

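Over the alternatives run, the hippocampal day-night median of the 10 genes and the median between regions kept their sign, and 0 of the 10 genes were called for conditions, change by condition or replicate number. Replicate 4 alone, chosen after seeing the data and with fewer samples, gave a frontal cortex median of 0.593, with 0.786 for Ttr, 0.131 for Kl, 0.569 for Prlr, 0.827 for Clic6 and 0.0103 for Msx1; it called 0 companions in each region and between regions, and 118, 0 and 0 of all genes. Leaving out each replicate gave 2 to 13 companions lower by day in frontal cortex and 0 to 18 for the difference between regions. Over all genes it called 4319 to 7356 in hippocampus, 3941 to 6403 in frontal cortex, 1322 to 3518 between regions and 15 to 224 for the difference, and the median r in frontal cortex was 0.629 to 0.850. For the difference between regions, DESeq2 called 20 companions and the fit without Ctr0 replicate 4 of hippocampus at night, added after seeing the data, called 19 (239 of all genes). Library totals alone called 4293 genes in hippocampus and 4065 in frontal cortex, and 3862 instead of 0 for conditions in hippocampus. By DESeq2 1342 genes instead of 3 were called for replicate number in frontal cortex, and DESeq2 gave no adjusted p there for Folr1 and Epn3. The cause was not tested.

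Replicate numbers did not pair the libraries throughout. Over 16 day and night pairs of 1 condition and number, r of the deviations ran from -0.59 to 0.38 in hippocampus and from -0.42 to 0.68 in frontal cortex. By the methods the brains were removed, so day and night libraries cannot share an animal. Over 32 pairs of both regions with the same phase, condition and number, r ran from -0.71 to 0.74. The median there was 0.0062, and 12 of the 32 were over 0.1. With the replicate block 7 companions were lower by day in frontal cortex, and with both regions of 1 label as a pair in the block 4 companions differed between regions. In frontal cortex by day 6 of the 10 genes had 3 counts or fewer in 6 to 13 of 16 libraries, and differences at such counts were not readable at this depth.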
